A study of Mus musculus with 2 samples.

Results

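The genes described are those of respiratory complex I, taken as every gene of the array's annotation whose symbol starts with Nduf. Of 18193 genes named by a probe set with 1 symbol, 44 met that rule. They comprised 6 core subunits (Ndufs1, Ndufs3, Ndufs7, Ndufs8, Ndufv1 and Ndufv2), 30 accessory subunits and 8 assembly factors of the Ndufaf series. Each gene was read from the probe set with the highest mean signal over both arrays.

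Total RNA came from glomeruli, the filtering tufts of the kidney, dissected from male KK/Ta mice of 20 weeks. KK/Ta is an inbred strain prone to obesity and type 2 diabetes, so both diet groups carry that background. One group was given a high-fat diet (HFD, 1 array) and the other a normal fat chow diet (Chow, 1 array). The design text speaks of 3 mice without saying whether each array holds pooled RNA from several animals. With 1 array per diet, no difference has a replicate check, and no p-value or error between diets is given. The differences describe these 2 RNA preparations.

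Complex I passes electrons from NADH to ubiquinone and pumps protons across the inner mitochondrial membrane. Its catalytic centre is a set of core subunits conserved from bacteria, some encoded in the nucleus and some in mitochondrial DNA. In mammals these are surrounded by many small accessory subunits that support assembly and stability, while assembly factors act during construction and leave the finished enzyme. In the kidney, mitochondria are most abundant in tubule cells, and glomerular cells hold fewer.

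Accessory subunit transcripts stood lower in HFD than in Chow glomeruli, whereas core subunit transcripts were close to their Chow level. Of 28 accessory genes above the signal floor (each array's median probe set), 22 were lower in HFD, beside 37.8% of all genes above it. Their median difference was -0.20 on the log2 scale (HFD minus Chow, after both arrays were centred on their medians). The 6 core genes ran from -0.06 to 0.17 with a median of 0.11, which was 0.02 without centring and 0.04 without probe sets that may match several transcripts. The 8 assembly factors had a median of 0.07, with members in both directions. Ndufb2, Ndufb6, Ndufb5, Ndufa1 and Ndufa2 had the largest differences on the lower side.

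Because transcription of respiratory chain genes is known to involve the factors NRF1 and GABP, the promoters of members with unlike differences are shown for comparison. Promoter windows of 300 bases, from 250 before the start of transcription to 50 after it, were found for 39 of the 44 genes in RefSeq (build GRCm38.p6). The NRF1 letters GCGCANGCGC, searched on both strands, were in 17.9% of the members' promoters, in 5.19% of all promoters of that length and in 11.8% of those whose genes were above the floor. Windows around the NRF1 letters are printed 5′ to 3′ on the gene's strand, with the match in capitals, and stop before the start of transcription. Ndufa5 lies on the minus strand at chr6:24527691-24527741, Ndufaf4 on the plus strand at chr4:24897945-24898004, Ndufs5 on the minus strand at chr4:123718250-123718309 and Ndufa8 on the minus strand at chr2:36049339-36049393.
Ndufa5: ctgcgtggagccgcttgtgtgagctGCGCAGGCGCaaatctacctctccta
Ndufaf4: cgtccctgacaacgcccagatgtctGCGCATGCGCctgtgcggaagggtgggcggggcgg
Ndufs5: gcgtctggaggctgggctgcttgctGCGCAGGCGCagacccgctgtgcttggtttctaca
Ndufa8: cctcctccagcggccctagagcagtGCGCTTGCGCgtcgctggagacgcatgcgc
The members with these letters did not share a direction. Ndufaf4 and Ndufa5 were lower in HFD (-0.40 and -0.38), Ndufs5 differed by -0.11 and Ndufa8 by 0.06. Without centring Ndufa8 stood at -0.0216. Ndufa6 (-0.32) and Ndufaf5 (0.20) hold the letters after the start of transcription and are not printed. Ndufb4, which also holds them, was under the floor. None of the 5 core promoters held the letters, against 5 of 27 accessory and 2 of 7 assembly promoters. With so few core promoters, and a share of 11.8% over genes above the floor, this is not read as a class difference.

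The GABP letters CCGGAAG, on either strand, were in 15.4% of the members' promoters, 9.93% of all promoters and 20.1% of those of genes above the floor. By class, these letters were in 2 of 5 core, 2 of 27 accessory and 2 of 7 assembly promoters. They are shown for a core, an accessory and both an assembly gene that was lower and one that was higher in HFD. Ndufs3 is on the minus strand at chr2:90904722-90904774, Ndufb6 on the minus strand at chr4:40279621-40279671, Ndufaf8 on the plus strand at chr11:120098900-120098933 and Ndufaf1 on the minus strand at chr2:119662835-119662878.
Ndufs3: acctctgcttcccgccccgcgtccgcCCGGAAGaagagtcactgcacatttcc
Ndufb6: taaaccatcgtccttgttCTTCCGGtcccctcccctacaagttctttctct
Ndufaf8: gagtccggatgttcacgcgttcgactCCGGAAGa
Ndufaf1: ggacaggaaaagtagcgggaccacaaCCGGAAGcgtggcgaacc
The printed genes were chosen for unlike directions: Ndufb6 differed by -0.60 and Ndufaf8 by -0.46, Ndufs3 by 0.15 and Ndufaf1 by 0.22. With the median over its probe sets, Ndufaf8 stood at 0.02. The other members with the letters, Ndufb7 and Ndufs8, differed by -0.09 and 0.10. The YY1 letters AAGATGGCG were in 12.8% of the members' promoters, 1.64% of all promoters and 3.64% of those above the floor. Sp1 letters (GGGGCGGGG) were in 15.4%, 12.9% and 25.3%, and the ERR-alpha letters TCAAGGTCA in 0 of 39 members' promoters and 0.466% of all. A match describes letters in a window and not a bound site.

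The core subunits carry the flavin and the iron-sulphur clusters, and their transcripts were similar on both arrays. Ndufv1, which binds NADH and the flavin, reached a signal of 3590.3 in HFD against 3380.3 in Chow, a difference of 0.17. Ndufs3, of the quinone-reducing module, had 1665.7 and 1595 (0.15), and Ndufs1, the largest iron-sulphur subunit, 1704.8 and 1669.3 (0.11). These genes were slightly higher in HFD. Ndufs8, which carries a pair of iron-sulphur clusters, had 3077 and 3045.3 (0.10). Ndufs7, which holds the cluster that hands electrons to ubiquinone, had 2272.1 in HFD and 2509.4 in Chow (-0.06), and Ndufv2, partner of Ndufv1, had 2226.9 and 2466.2 (-0.06). Spread over genes gives the only scale for these values. The median of 1240 genes in the core genes' signal range was 0.06 with a scatter of 0.17 (scaled median absolute deviation). This scatter mixes measurement noise with true differences between the preparations.

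**Figure D1:**
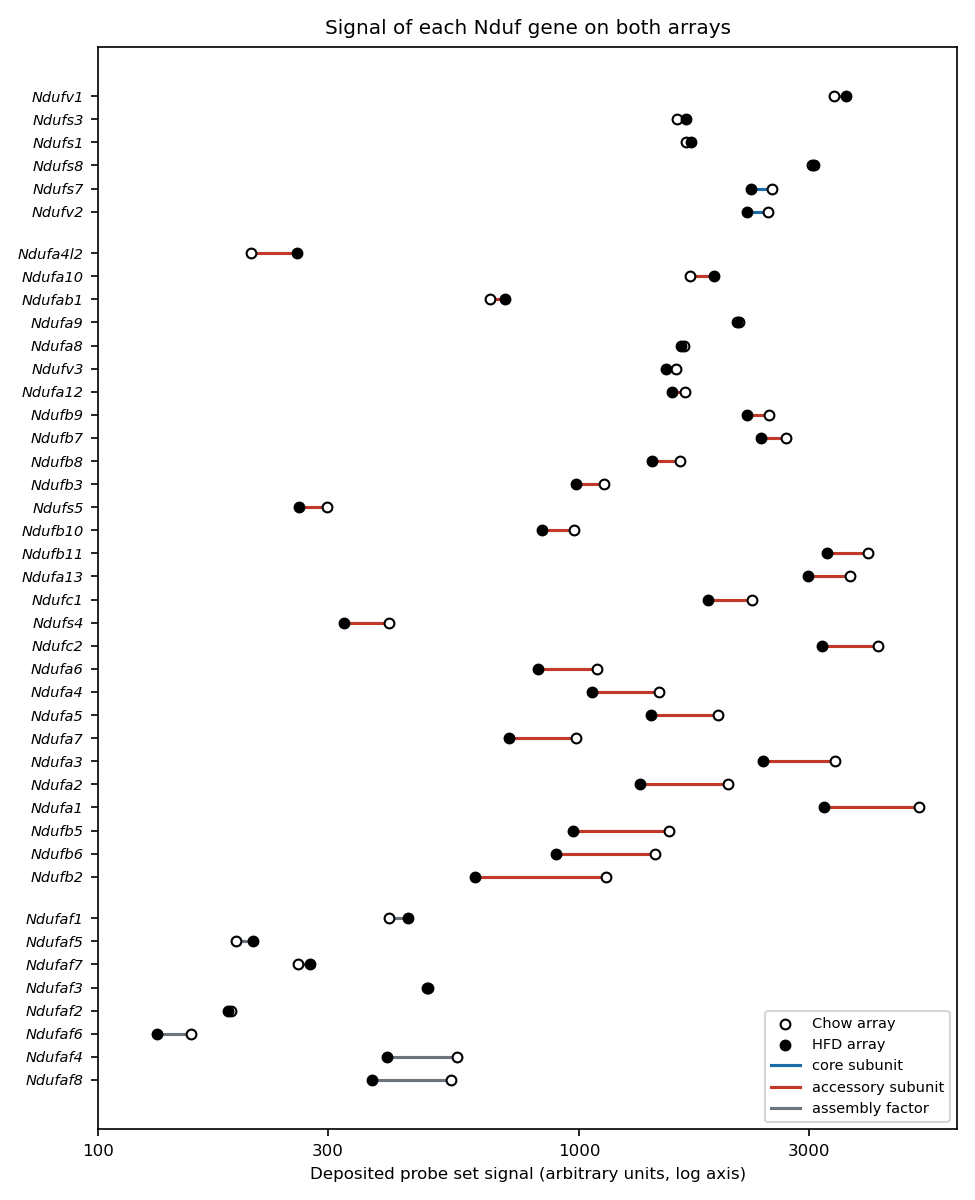
Deposited signal (arbitrary units, log axis) of the 42 Nduf genes above the floor, open circles for the Chow array and filled circles for the HFD array, joined by a line coloured by class. The lines of accessory genes such as Ndufb2, Ndufb6, Ndufb5 and Ndufa1 run to the left from Chow to HFD, while the lines of the core genes are short. Centring adds 0.08 (log2) to every HFD minus Chow difference and is not drawn.

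Among the accessory subunits, every Ndufb gene above the floor was lower in HFD, although Ndufb8 stood at 0.16 with the median over its probe sets. Of all genes above the floor, 37.8% were lower. The Ndufb proteins sit in the distal part of the membrane arm. Their 9 measured genes ran from -0.82 to -0.07 with a median of -0.13. Ndufb2 had a signal of 605.7 in HFD and 1135.3 in Chow and was 1.77-fold lower. Ndufb6 had 895 and 1437.5 (1.52-fold lower), and Ndufb5 967.9 and 1534.7 (-0.58 on the log2 scale). The other members were closer to their Chow level. Ndufb11, a bright gene with 3268.9 against 3982.7, differed by -0.20, and Ndufb10 by -0.13. Ndufb3 and Ndufb8 each differed by -0.11, Ndufb7 by -0.09 and Ndufb9 by -0.07. Ndufb1 (26.6 and 19.3) and Ndufb4 (30.1 and 24.6) were under the floor on both arrays and have no difference.

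Ndufa genes held most of the other large differences, and also the highest. Of 13, 9 were lower in HFD, beside 37.8% of all genes. The median of the 13 was -0.32. Ndufa1, a small membrane subunit needed for assembly, was the brightest accessory gene, with 3227 in HFD and 5079.5 in Chow (1.49-fold lower). Ndufa2, of the NADH-oxidising module, had 1336.8 and 2040.9 (1.44-fold lower). Ndufa3 had 2408.5 and 3402.6 (1.33-fold lower). Ndufa7, Ndufa5 and Ndufa6, of the matrix arm, were lower by 1.30-fold, 1.30-fold and 0.32 on the log2 scale. Ndufa13, also known as GRIM-19, had 2990.5 and 3653.1 (-0.21).

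On the other side, Ndufa10, a membrane-arm subunit related to nucleoside kinases, had 1902 in HFD and 1698.3 in Chow (0.25). Ndufa9, which binds NADPH, differed by 0.07 and Ndufa8 by 0.06, and without centring they stood at -0.0117 and -0.0216. Ndufa12 was at -0.0010, with further bright probe sets at -0.28 (1148.6 against 1481.7) and -0.26 (1215.7 against 1547.6). The accessory genes that stood higher in HFD did so by 0.25 or less, with the exception of Ndufa4l2. Ndufa4l2, known as a hypoxia-inducible gene, had 258.3 against 207.8 (0.40). Its relative Ndufa4, whose protein has been reassigned to complex IV, had 1063.7 against 1467 (-0.38). Without these 2 genes the accessory median was -0.20 over 26 genes, unchanged because they lie on opposite sides of it.

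The remaining accessory genes were mostly lower by small amounts. Ndufc2 had 3194 in HFD and 4184.6 in Chow (-0.31, but -0.10 without probe sets that may match several transcripts), and Ndufc1 had 1847.3 and 2280.1 (-0.22). Ndufs4, whose loss in mice gives a model of Leigh syndrome, had 324.8 and 401.9 (-0.22), and Ndufs5 261 and 299.1 (-0.11). Ndufv3 differed by 0.01. Ndufab1, the mitochondrial acyl carrier protein, which also serves lipoic acid synthesis, had 701.6 and 651.8 (0.19). Pseudogene copies of Ndufa12, Ndufab1 and Ndufs5 are annotated, so their signals are uncertain.

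By size, no member differed by 2-fold in either direction. The shares past that size over all 11360 genes with signal above the floor were 0.158% for lower and 0.731% for higher. Ndufb2 and Ndufb6 were at least 1.5-fold lower, against 1.42% of all genes and 0.828% of the 7003 genes in the subunits' signal range (233 to 4153.3). Chow exceeded HFD by at least 25% in 10 of 28 accessory genes (35.7%), 2 of 8 assembly factors and 0 of 6 core genes. The same held for 6.29% of all genes above the floor and for 4% of genes in the subunits' signal range. In the other direction, HFD exceeded Chow by at least 25% in 1 accessory gene, Ndufa4l2, against 13.6% of all genes. Some 37.8% of all genes and 37.5% of those in the signal range were lower by any amount, and 62.2% of all genes were higher. Of the accessory genes, 78.6% were lower. Without centring, 5235 of the 11360 genes were higher and 6124 lower, and 25 of 28 accessory genes, 5 of 8 assembly factors and 2 of 6 core genes were lower.

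**Figure D2:**
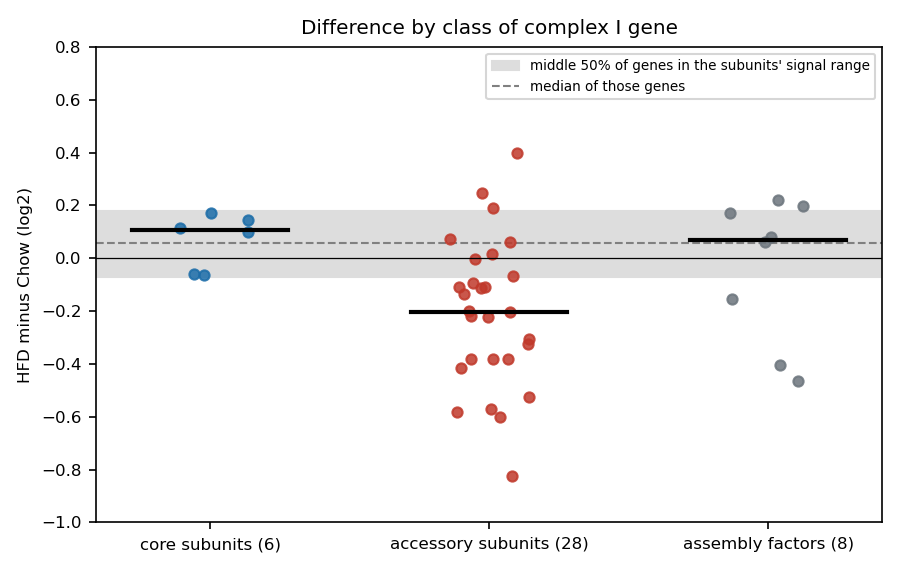
HFD minus Chow difference (log2) of each gene above the floor by class, with a black bar at the class median. The grey band is the middle 50% of the 7003 genes in the subunits' signal range (-0.07 to 0.18) and the dashed line their median (0.06). Core genes lie in the band, and 21 of 28 accessory genes lie below the lowest core gene.

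The core median exceeded the accessory median by 0.31, or 1.24-fold. Of the 28 accessory genes, 21 lay below the lowest core gene, 4 within the core range and 3 above the highest. No test of this difference can be made with 1 array per diet. Over the 10 other ways of processing the arrays, it ran from 0.21 to 0.32. Leaving out Ndufa4 and Ndufa4l2, which lie on opposite sides of the accessory median, could not move it. Within the accessory genes, both arms of the enzyme were involved. The 8 of the peripheral arm, which projects into the matrix, had a median of -0.27 (6 lower). The 17 of the membrane arm had -0.20 (15 lower), beside 37.8% of all genes that were lower. Taken with their core genes, the NADH-oxidising module had a median of -0.03 and the quinone-reducing module 0.01. The sign of both depended on the processing. The difference of the 34 subunits showed little relation to their brightness (Pearson r = -0.07, Spearman rho = 0.07 across genes). It had a weak positive relation to the span of the gene (r = 0.29, rho = 0.35). These genes share both arrays and are not independent.

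Assembly factors differed from gene to gene in direction. Ndufaf8 had 370.1 in HFD and 541 in Chow (-0.46), and its binding partner Ndufaf5, which hydroxylates Ndufs7, had 209.2 and 193.1 (0.20). Ndufaf4 had 397.6 and 557 (-0.40), and Ndufaf3, with which it forms a complex, had 482.4 and 483.6 (0.08). Without centring Ndufaf3 stood at -0.0036, and with the median over its probe sets Ndufaf8 stood at 0.02. Ndufaf1, of the complex that builds the membrane arm, had 441.2 and 401 (0.22). Ndufaf7, a methyltransferase, had 275.8 and 259.5 (0.17), Ndufaf2, a relative of Ndufa12, 186 and 189.1 (0.06), and Ndufaf6 132.5 and 156.1 (-0.15). The assembly factors were dimmer than the subunits. Their signal range had a wider scatter, 0.24, and the lower values of Ndufaf8 and Ndufaf4 were not repeated by their second probe sets.

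Assembly factors without the Nduf prefix also stood on both sides. Of 11 above the floor, 7 were higher and 4 lower, near the 62.2% of all genes that were higher, with a median of 0.07 (4 higher and 7 lower without centring). Tmem242 differed by 0.49, Timmdc1, which helps build the membrane arm, by -0.43, and Nubpl, which delivers iron-sulphur clusters, by 0.34. Of the mitochondrially encoded complex I genes, a probe set for ND5 was named. Its signal was 13562.8 in HFD and 14580.6 in Chow (-0.02).

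**Figure D3:**
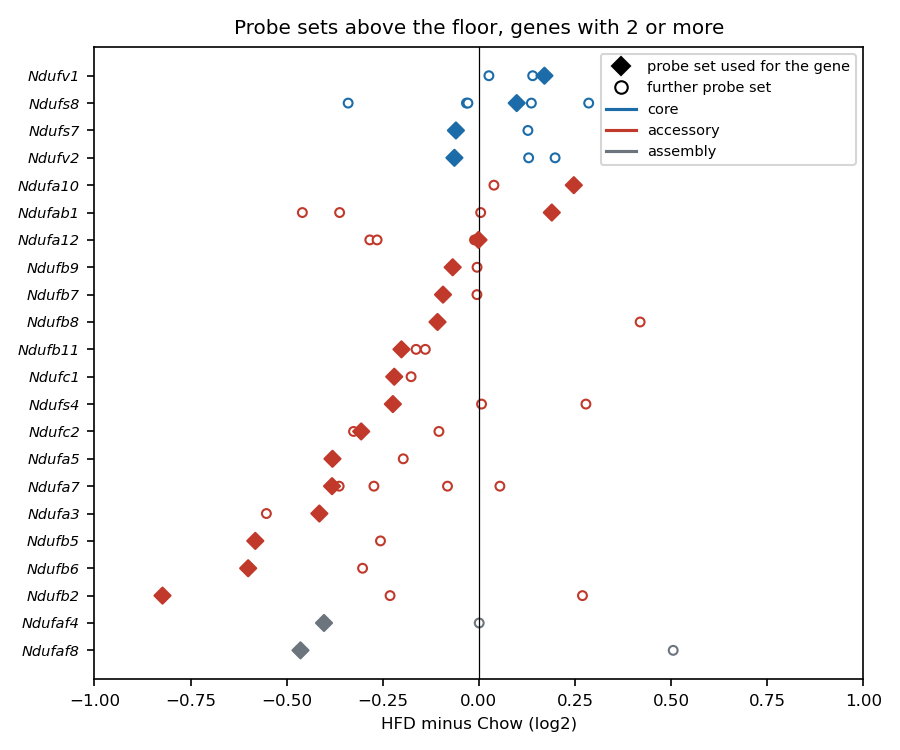
HFD minus Chow difference (log2) of every probe set above the floor for the 22 Nduf genes that have 2 or more, diamonds for the probe set used and open circles for the others. In 10 of the 16 accessory genes all probe sets lie left of 0, and in Ndufb2, Ndufb8, Ndufs4, Ndufa7 and Ndufab1 they lie on both sides.

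A gene's further probe sets gave a check within the same RNA. Over all 55 accessory probe sets above the floor, 42 were lower in HFD and 13 higher, with a median of -0.18. Of the 16 core probe sets, 5 were lower and 11 higher, with a median of 0.12. Of 27 further accessory probe sets, 20 had the sign of the one used, against 4 of 10 for core and 0 of 2 for assembly genes. All probe sets above the floor of Ndufa3, Ndufa5, Ndufb5, Ndufb6, Ndufb11, Ndufc1 and Ndufc2 were lower. The second Ndufb5 probe set (871.5 against 1102.7) differed by -0.26 and the second of Ndufb6 (835.3 against 1091.6) by -0.30, so both were smaller in size than the brightest.

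For some genes the probe sets disagreed. Ndufb2, the largest difference, had dimmer probe sets at -0.23 (102.2 against 127.1) and 0.27 (53.2 against 46.8), and its median over probe sets was -0.23. The second probe set of Ndufb8 was at 0.42 and those of Ndufs4 at 0.28 and 0.0069. Ndufa7 had 4 probe sets lower and 1 at 0.05, and Ndufab1 had dim probe sets at -0.46, -0.36 and 0.0046. Among core genes, Ndufv2 had probe sets at 0.13 and 0.20 beside -0.06, Ndufs7 had 0.13 beside -0.06, and the 6 of Ndufs8 ran from -0.34 at a low signal to 0.29. The second probe set of Ndufaf8 (89.7 against 67) stood at 0.51 and that of Ndufaf4 at 0.0008.

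Other mitochondrial genes were set beside complex I. All 13 measured enzymes of the citric acid cycle were higher in HFD by some amount (median 0.21, range 0.02 to 0.35, Idh3a highest), 10 of 13 of them also without centring. In complex II 5 of 6 genes were higher (median 0.15). Complexes III, IV and V had medians of -0.05, -0.06 and -0.03. Of their genes, 4 of 9, 5 of 10 and 8 of 16 were higher, and without centring 4, 1 and 6. Chow exceeded HFD by at least 25% in 3, 3 and 4 of these genes (33.3%, 30% and 25%). That share was 35.7% for accessory complex I genes and 6.29% for all genes. HFD exceeded Chow by at least 25% in 0, 0 and 1. Lower values of this size were thus not particular to complex I. The lowest members of these complexes were Uqcr11 of complex III at -1.13, Cox6c of complex IV at -0.90 and Atp5e of complex V at -0.81. Of 15 regulators of mitochondrial gene expression, 11 were higher, beside 62.2% of all genes, with Ppargc1a, a coactivator of mitochondrial biogenesis, at 0.41, Polg at 0.38 and Gabpb1 at 0.33.

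**Figure D4:**
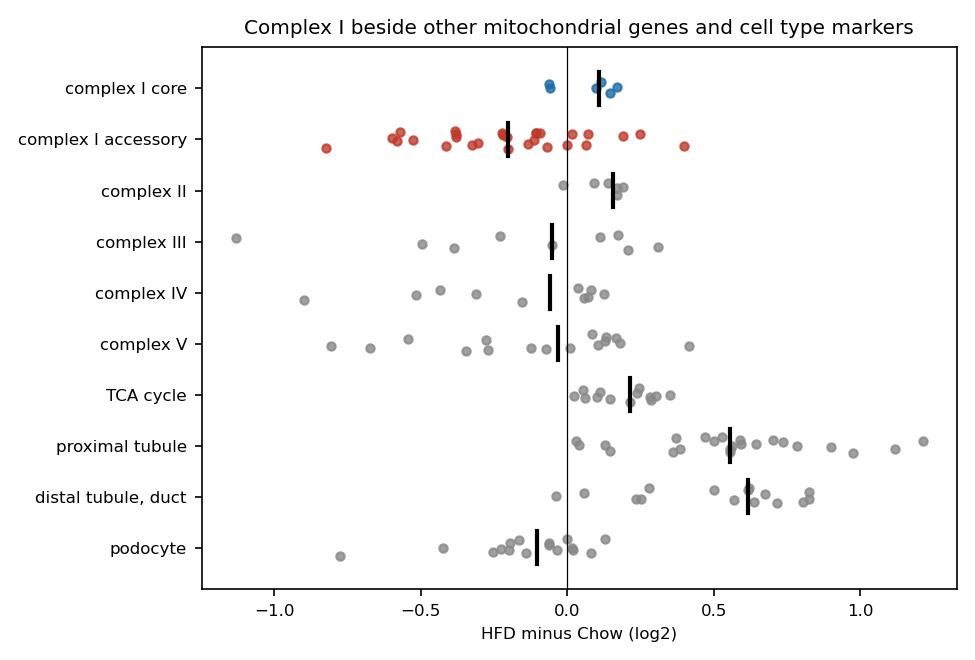
HFD minus Chow difference (log2) of each gene above the floor in complex I and in lists of other mitochondrial genes and of cell type markers, with a black bar at each list's median. Accessory complex I genes have the lowest median of the lists drawn (-0.20), but only complex I is divided by class and complexes II to V are drawn whole. The lower quartiles of complexes III, IV and V are -0.39, -0.40 and -0.30, and that of accessory complex I genes is -0.38. Citric acid cycle genes are all above 0 (10 of 13 without centring), and the proximal and distal tubule markers have medians of 0.56 and 0.61. Myeloid, endothelial and mesangial markers are not drawn.

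The 16 podocyte markers above the floor, which define glomerular tissue, had a median signal of 4188.6 in HFD and 5220.8 in Chow. Their mean signals over both arrays ran from 768.9 to 15788.7. Podxl stood at 15316 in HFD and 16261.4 in Chow and Nphs1 at 5420.9 and 5426.8. Cell type markers also differed between the arrays. For comparison, 62.2% of all genes above the floor were higher in HFD and 37.8% were lower. All 23 proximal tubule markers were higher in HFD (21 without centring; median 0.56), with a summed signal of 27951.7 against 19624.9. Slc22a6 (1.21), Napsa (1.12) and Cyp2e1 (0.97) were highest. Distal tubule and duct markers were higher for 14 of 15 above the floor (median 0.61, summed 10904.7 against 7808.9), with 4 of the 19 listed, Atp6v0d2, Cldn16, Foxi1 and Scnn1g, under the floor on both arrays. Podocyte markers were lower for 12 of 16, or 15 without centring, with a median of -0.10 and a summed signal of 80664 against 91220.9. Dach1 (-0.78), Thsd7a (-0.42) and Clic5 (-0.255) were lowest. Myeloid markers were higher for 20 of 21 (median 1.15, summed 10323.7 against 5953.6). Some markers passed the floor only on the HFD array and so could only count as higher. They were Cd68, C1qa, C1qb, C1qc, Fcgr3 and Cx3cr1 (myeloid), Scnn1b and Atp6v1b1 (distal) and Ass1 (proximal). Endothelial and mesangial medians were 0.20 and 0.11. The part of these cell types in the complex I values was not tested. In such bulk RNA, fewer cells of a type and less RNA per cell cannot be told apart. As a sign of RNA quality, the 3′ signal of Gapdh exceeded its 5′ signal 3.43-fold in HFD and 3.59-fold in Chow, and that of beta-actin 1.72-fold and 1.89-fold. The control probe sets of both genes were higher in HFD, Gapdh by 0.20 to 0.28 and beta-actin by 0.14 to 0.28.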

How the data were processed

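The authors hybridised glomerular RNA to Affymetrix mouse genome arrays after two-cycle labelling, per the labels' protocols, and deposited linear probe set intensity values, 1 column per array. The methods of probe summary and array scaling are not given in the sources used here, and the design text names GeneSpring for comparing the diets.

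The deposited intensities held 45101 probe sets, of which 64 were controls and were left out. The log2 of the others was taken and the median of its array subtracted, which added 0.08 to each HFD minus Chow difference. Values under each array's 50th percentile (42.4 in HFD, 44.9 in Chow) were raised to it. Of the remaining probe sets, 34945 named 1 gene in the 2016 platform annotation, 932 named several and 9160 named none here, and 11360 of 18193 genes were above the floor on 1 array or both. All 44 members matched RefSeq symbols. With 1 array per diet there is no test, and differences were described by size; the number of arrays limits the precision. The planned description by protein length was not run.

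The members, lists and thresholds were chosen with earlier results of these data known. Named were every core and assembly gene, the 10 accessory genes with the largest differences, the 6 brightest, those with disagreeing probe sets, and at most 3 genes of each other list. Further accessory genes, Podxl, Nphs1 and the distal markers under the floor were named after their values were seen. Alternatives varied the centring, normalization, floor, choice of probe set and log2 offset. The steps were tested on simulated data. Python 3.11.15, pandas 2.3.3 and statsmodels 0.14.6 were used.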

Additional observations from a re-analysis of the deposited data

How the results depend on the processing

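Over the 10 alternatives for processing, the accessory median kept its sign and ran from -0.29 (no centring) to -0.15, and the core median kept its sign and ran from 0.0226 (no centring) to 0.1217. The count of accessory genes for which Chow exceeded HFD by at least 25% ran from 7 to 11, the count lower by any amount from 20 to 25, and that of core genes past 25% stayed at 0 (these counts were added after the data were seen). The genes past that size in every setting that kept a probe set for them were Ndufa1, Ndufa2, Ndufa3, Ndufa4, Ndufa6, Ndufb5 and Ndufb6. With a threshold of 1.5-fold in place of 2-fold, 2 members were lower. Without centring the assembly median was -0.0135. The median of the quinone-reducing module, near 0, turned to -0.0775 without centring, -0.0488 with quantile normalization, -0.0411 with loess, -0.0442 without probe sets that may match several transcripts, and -0.0005 with the 25th percentile added. With the median over probe sets, the NADH-oxidising module stood at 0.0091 and Ndufaf8 at 0.0207. The cause was not tested. No paired analysis was possible because each diet has 1 array, and no array could be left out.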

Other observations

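Besides the probe sets with 1 gene symbol, 10 probe sets list several symbols of which at least 1 starts with Nduf, and they were kept out of every count. Of the 8 above the floor, 7 were lower in HFD and 1 higher, with differences from -0.51 to 0.06 and a median of -0.27. For 3 of them Chow exceeded HFD by at least 25%. Since such probe sets cannot be assigned to a gene or its copies, no gene is named from them.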
